A study of Saccharomyces cerevisiae with 9 samples.

Results

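The proteins of the large (60S) ribosomal subunit of budding yeast are encoded by the RPL genes and by the genes of the acidic stalk proteins, RPP0, RPP1A, RPP1B, RPP2A and RPP2B. Members were taken by gene name: RPL followed by a number with an optional A or B, or one of the 5 RPP names. The names gave 80 genes of the 6516 features listed in the 3 tables, and all 80 were listed in each table. The R64 annotation holds 81 such genes; RPL13A was listed in no table. The 80 genes formed 34 paralog pairs and 11 single-copy genes, plus RPL13B, whose pair could not be followed.

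The data were Oxford Nanopore direct RNA reads of total RNA from *Saccharomyces cerevisiae*, in which every read is 1 polyadenylated RNA molecule and its last aligned base marks a poly(A) site. There were 3 groups of 3 libraries each. Bdp1AA Rna15AA cells carried both RNA15-FRB::His and BDP1-FRB::kanMX6, Bdp1AA cells carried BDP1-FRB::kanMX6, and WT cells are labelled with neither. The background of every group was HHY168 with fpr1delta::hphMX4. All 3 groups had been given rapamycin for 2 h, and no library without rapamycin was analysed here. In the anchor-away system rapamycin ties an FRB-tagged nuclear protein to an anchor, and HHY168 is known for an anchor made of FKBP12 fused to the ribosomal protein Rpl13a, itself the product of a large subunit gene; the depletion follows the traffic of new ribosomal proteins out of the nucleus. Bdp1 is a subunit of TFIIIB, which places RNA polymerase III on tRNA genes. Rna15 is the RNA-binding subunit of cleavage factor IA, which directs the cut at the poly(A) site. Each group was deposited as 1 column in which its 3 libraries are pooled, so no spread between libraries could be measured, no test between groups was possible, and intervals given here cover counting error only.

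Ribosomal protein genes are transcribed by RNA polymerase II from promoters bound by Rap1, Fhl1 and Ifh1, and they lie downstream of the TOR pathway. Most of them exist as a pair of near-identical copies left by an ancient whole-genome duplication, and many carry an intron, in a genome where introns are rare. Here 52 of the 80 members had an annotated intron. Each protein is needed in 1 copy per subunit except the stalk proteins P1 and P2, which are present in more.

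Signal on the deposited scale was a whole multiple of a fixed step in every table, and 1 step was taken as 1 read. Ends past the annotated gene end made up 7020861 reads in Bdp1AA Rna15AA, 14096898 in Bdp1AA and 22048431 in WT. The members held 1499447, 3240409 and 6036680 of these. BDP1 was listed in WT with 298 reads past its end and was not listed in the other tables. RNA15 had no read listed past its end in Bdp1AA Rna15AA, where 382 reads ended inside the gene, and 143 in Bdp1AA and 380 in WT past its end with none inside. FPR1, deleted in all 3 strains by the labels, still had 30 reads past its end in WT and was not listed in the others. Signal counts the ends of reads, so it was not divided by gene length. Whether length bears on how well an RNA is captured was not tested. Ends listed under more than 1 gene were kept under each, so a read may enter these totals more than once. Fewer cells of a kind and less RNA per cell cannot be told apart in such data.

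Transcripts of some members ended at other sites in Bdp1AA Rna15AA, and the stretches around these sites are shown for the 7 members whose site usage differed by 20 percentage points from Bdp1AA. Each line gives 30 bases of the R64 reference genome in the sense direction, 5′ to 3′, with the last aligned base of the most used position in capitals. The distance is that in the deposited tables, which counts 1 nt less than the distance of the last aligned base.
RPL24A at 130 nt, chrVII:437327-437356, minus strand: ccatccacttctctatcattAtactcccat
RPL24A at 232 nt, chrVII:437225-437254, minus strand: gaataaatgactaattttcaAgaatttgtt
RPL33A at 132 nt, chrXVI:283083-283112, plus strand: taaaattaattccgtacaaaAggcaaaaga
RPL33A at 417 nt, chrXVI:283368-283397, plus strand: tttagcgacagacattttaaAtggaaaaat
RPL26B at 117 nt, chrVII:556770-556799, plus strand: ttagtttctttaaaaataaaAttgtaattt
RPL26B at 243 nt, chrVII:556896-556925, plus strand: agaaaacttccaatattaaaAtgtgattgt
RPL43A at 75 nt, chrXVI:654903-654932, plus strand: ctcaaaaacttttccagtaaAtgtctgttt
RPL43A at 270 nt, chrXVI:655098-655127, plus strand: aaaccaaaatcatataccttAggcatcccg
RPL34B at 56 nt, chrIX:256160-256189, minus strand: tctcgtcgtactaaaaaaaaAcacttttat
RPL34B at 290 nt, chrIX:255926-255955, minus strand: aattatacaattggtcggaaAtggagggaa
RPL12A at 81 nt, chrV:52630-52659, minus strand: gataattgcacaaaattccaAtacgtttat
RPL12A at 238 nt, chrV:52473-52502, minus strand: aattatatctgcatgtgattAtaccctccg
RPL9B at 304 nt, chrXIV:500541-500570, plus strand: tattctctaatacgttacaaAtgattttct
All of these sites lie before the next annotated gene, and in each the last aligned base is an A. Over all genes the last aligned base was A at 94.4% of 2312 plus-strand positions and 94.1% of 2285 minus-strand positions, so an aligned final A may be genomic or the first base of the tail.

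The members together held 21.4% of all downstream signal in Bdp1AA Rna15AA, 23.0% in Bdp1AA and 27.4% in WT. RPL41A and RPL41B, whose products are the shortest proteins of the ribosome and reach across to the small subunit, made up 27.4% of the members' signal in Bdp1AA Rna15AA, 17.1% in Bdp1AA and 11.4% in WT. Of the 50 features with the highest signal, 17 were members in Bdp1AA Rna15AA, 18 in Bdp1AA and 26 in WT. The median member had a signal of 818 in Bdp1AA Rna15AA, 1619 in Bdp1AA and 2910 in WT on the deposited scale. A signal over 1000 was reached by 35 members in Bdp1AA Rna15AA, 61 in Bdp1AA and 73 in WT.

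Among the members RPL41B had the highest level in every table, with a signal of 26543 in Bdp1AA Rna15AA, 18310 in Bdp1AA and 18186 in WT. Next to it stood RPL41A, at 4593, 9855 and 11362 in the same order of groups. After this pair the ranking differed between tables. In Bdp1AA Rna15AA the places behind were held by RPL14A (3020), RPP2A (2998) and RPL10 (2972). In Bdp1AA they were held by RPL29 (6763), RPP2B (5525) and RPP1A (4503), and in WT by RPL29 (8659), RPL39 (6104) and RPL25 (5628).

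The lowest levels belonged to single copies of pairs. In Bdp1AA Rna15AA these were RPL8A at 9.63, RPL7B at 14.6, RPL15B at 35.8, RPL9B at 37.1 and RPL26A at 38.7. In Bdp1AA they were RPL7B at 37.1, RPL15B at 39.2, RPL18B at 54.9, RPL8A at 69.4 and RPL9B at 87.6. In WT they were RPL15B at 59.2, RPL22B at 125, RPL18B at 145, RPL9B at 203 and RPL7B at 411. The least read member had 127 reads in Bdp1AA Rna15AA, 728 in Bdp1AA and 1378 in WT, so all 80 members passed the minimum of 60 reads in every table.

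**Figure D1:**
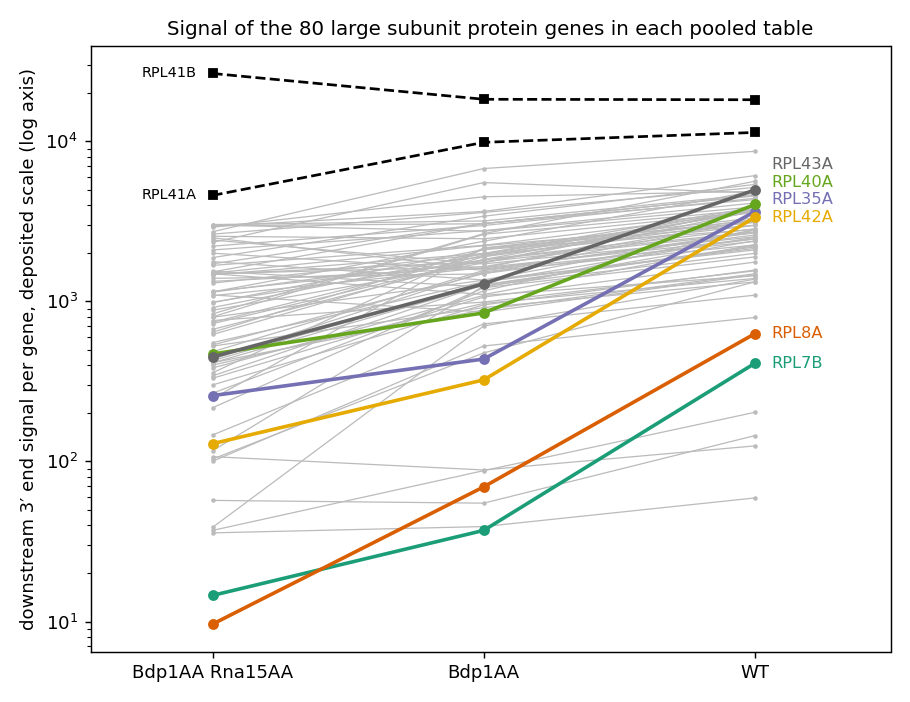
Downstream 3′ end signal (log axis, deposited scale) of each of the 80 members in Bdp1AA Rna15AA, Bdp1AA and WT, 1 line per gene. Coloured lines are the 6 members at least 2-fold lower in Bdp1AA than in WT after centring on the median gene; RPL8A, for example, had 9.63, 69.4 and 629. Dashed lines are RPL41A and RPL41B. Each point is a pooled value without a spread between libraries.

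Bdp1AA was compared with WT to ask what loss of Bdp1 does to these mRNAs. A small set of members was at least 2-fold lower, all of them 1 copy of a pair, as 69 of the 80 members are with RPL13B included. The rest ran from -0.96 (RPL35B) to 0.73 (RPP2B) on the log2 scale, and 47 of the 80 lay within 1.2-fold of the median gene. Ratios were centred on the median of 4543 genes, which was -0.51 on the log2 scale before centring. Of the 80 members 6 were at least 2-fold lower, where 9.95% of all genes were, and 0 were at least 2-fold higher, where 6.27% of all genes were. The share lower, 7.5%, was near that background. The median log2 ratio of the members was -0.17, and 67 of 80 lay below 0. Protein-coding genes of the same span of lengths, 78 to 1662 nt, had a median of 0.18, and 2.32% of these 3185 genes were at least 2-fold lower. Gene length moved with the ratio in this way, and its part in the members' values was not tested.

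The 6 lower members were RPL7B, RPL42A, RPL8A, RPL35A, RPL40A and RPL43A. RPL7B had a signal of 37.1 in Bdp1AA and 411 in WT, a log2 ratio of -2.96 (95% counting interval -3.07 to -2.85), or 7.76-fold lower. RPL42A, which encodes a protein near the tRNA exit site, had 323 in Bdp1AA and 3352 in WT (-2.86, interval -2.90 to -2.82). The other copy of each of these pairs lay nearer to the median gene: RPL7A had 1104 in Bdp1AA and 2263 in WT (-0.52), and RPL42B had 2375 in Bdp1AA and 4894 in WT (-0.53).
RPL8A had a signal of 69.4 in Bdp1AA and 629 in WT (-2.67, interval -2.75 to -2.59). RPL35A, whose product sits at the rim of the exit tunnel, had 436 in Bdp1AA and 3640 in WT (-2.55). RPL40A, which encodes a fusion of ubiquitin and a ribosomal protein, had 847 in Bdp1AA and 4033 in WT (-1.74), and RPL43A had 1287 in Bdp1AA and 4968 in WT (-1.44). All 6 were lower under every other scaling and filter that could be applied to them. RPL43A was the member closest to the threshold among the 6, and RPL35B, at -0.96 with 477 in Bdp1AA and 1324 in WT, was the closest outside it.

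These 6 genes lie on 5 chromosomes and shared no role: 1 belongs to the exit tunnel group, 1 to the tRNA sites, 1 to the bridges to the small subunit, 1 is the ubiquitin fusion and 2 belong to none of the groups. In 5 of them an intron is annotated, RPL8A being the exception. None had a tRNA gene nearby, the nearest to any of the 6 being 26730 bp away. Together they gave 1.17% of the members' signal in Bdp1AA Rna15AA, 1.82% in Bdp1AA and 6.57% in WT. The cause of the lower signal was not tested.

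The highest ratios in Bdp1AA against WT stayed under 2-fold. RPP2B, a stalk protein gene, had a signal of 5525 in Bdp1AA and 4757 in WT (log2 ratio 0.73, interval 0.72 to 0.74). It was followed by RPL41B at 0.52, RPP1A at 0.40, RPL41A at 0.31 and RPL29 at 0.16. RPL41A, RPL41B and RPL29 are the shortest members, at 78, 78 and 180 nt. On the deposited scale, without centring, RPP2B and RPL41B were the members with more signal in Bdp1AA than in WT, and 19 members were at least 2-fold lower.

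**Figure D2:**
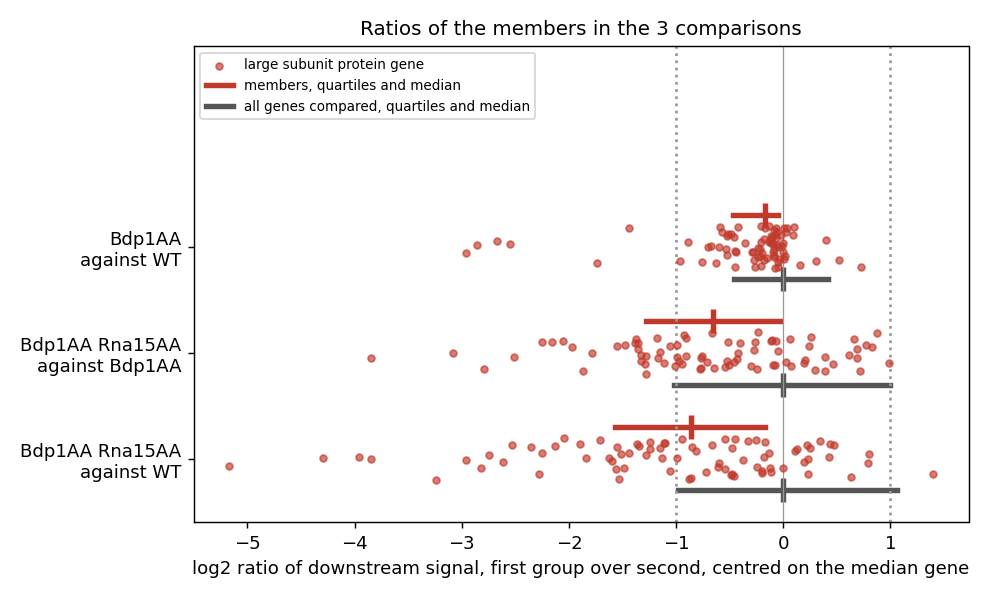
Log2 ratio of downstream signal, first group over second and centred on the median gene, for each of the 80 members (points) in the 3 comparisons. Thick bars span the quartiles and ticks mark the medians of the members and of all genes compared. The members' median was -0.17 in Bdp1AA against WT, -0.66 in Bdp1AA Rna15AA against Bdp1AA and -0.86 in Bdp1AA Rna15AA against WT. Dotted lines mark 2-fold; the points carry no spread between libraries.

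Bdp1AA Rna15AA was compared with Bdp1AA to ask what loss of Rna15 adds. Members were mostly lower than the median gene, and the copies of a pair often differed strongly. Of the 80 members 27 (33.75%) were at least 2-fold lower, where 25.2% of the 2935 genes compared were, and 0 were at least 2-fold higher, where 25% of all genes were. Centred on coding genes of the members' length range, 4 were at least 2-fold higher and 21 lower. The median member had a log2 ratio of -0.66, and 60 of 80 lay below 0; coding genes of the same length range had a median of -0.26. All genes had a median of -0.34 before centring.

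RPL26A, a gene of the exit tunnel group, had a signal of 38.7 in Bdp1AA Rna15AA and 702 in Bdp1AA, against 1376 in WT. Its log2 ratio to Bdp1AA was -3.84 (interval -3.97 to -3.72), or 14.4-fold lower, the lowest of all members. RPL26A was also the member with the closest tRNA gene, a tRNA-Arg gene on the same strand 632 bp before its start. RPL36A followed at -3.08, with 117 in Bdp1AA Rna15AA, 1248 in Bdp1AA and 1996 in WT. RPL43B stood at -2.79, with 247, 2153 and 2993 in the same groups. RPL8A was at -2.51 and RPL19B at -2.25.
The other 22 lower members had log2 ratios between -2.15 and -1.01. They included RPL2A, RPL31B, RPL14B, RPL35B, RPL37B, RPL1A, RPL20A, RPL24A, RPL23B, RPL12A, RPL23A, RPL25, RPL6B, RPL1B, RPL8B, RPL13B, RPL43A, RPL11B, RPL40B, RPL12B and RPL7B. RPL7B, the closest to the threshold, had an interval of -1.25 to -0.78 that spans 2-fold, and the other 26 had intervals beyond it.

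Among the 11 single-copy genes RPL25 was the only one at least 2-fold lower (-1.33, with 835 in Bdp1AA Rna15AA and 2650 in Bdp1AA). RPL25 encodes the exit tunnel protein that docks the signal recognition particle. Of the 34 pairs 5 had both copies at least 2-fold lower, the pairs RPL1, RPL8, RPL12, RPL23 and RPL43, and 15 had 1 copy lower. In the other 14 neither copy passed. The median was -0.27 over single-copy genes and -0.77 over paired genes. It was -0.84 over the 46 members whose next gene lies in tandem and -0.47 over the 34 whose next gene is convergent.

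The highest ratios again stayed under 2-fold. RPL19A had a signal of 2496 in Bdp1AA Rna15AA and 1593 in Bdp1AA (log2 ratio 0.98, interval 0.96 to 1.01). RPL41B stood at 0.87, RPL11A at 0.83, RPL7A at 0.77 and RPL4A at 0.72. For RPL19, RPL11 and RPL7 the other copy of the pair was among the 27 lower members.

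Bdp1AA Rna15AA was also set against WT, which shares its libraries with the comparisons above, so the values are given side by side and not as further support. Of the 80 members 36 were at least 2-fold lower, where 24.6% of the 3003 genes compared were, and 1 was at least 2-fold higher, where 26.1% were. The 1 higher member was RPL41B (log2 ratio 1.40, interval 1.39 to 1.41), and without centring no member was 2-fold higher. The lowest were RPL8A at -5.17 (interval -5.44 to -4.92, 36.1-fold lower), RPL26A at -4.30, RPL7B at -3.96, RPL42A at -3.84 and RPL36A at -3.24. RPL8A had 127 reads in Bdp1AA Rna15AA, where a position needed 11, and 14645 in WT, where it needed 20. Ends under these limits are missing, which weighs most on copies with few reads and may enlarge their fold. The intervals do not cover this. RPL19A (0.80), RPL11A (0.79), RPL22B (0.63) and RPP2A (0.48) came next to RPL41B at the upper end.
The other 31 lower members had log2 ratios between -2.96 and -1.06. They included RPL35A, RPL35B, RPL43B, RPL43A, RPL37B, RPL19B, RPL2A, RPL40A, RPL31B, RPL14B, RPL25, RPL1A, RPL1B, RPL9B, RPL12A, RPL8B, RPL6B, RPL20A, RPL13B, RPL23A, RPL23B, RPL40B, RPL24A, RPL37A, RPL42B, RPL12B, RPL26B, RPL34B, RPL34A and RPL11B. RPL13B, the paralog of the anchor gene RPL13A, had a signal of 621 in Bdp1AA Rna15AA, 1903 in Bdp1AA and 3156 in WT.

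By role, the members of the 5S RNP, the particle of 5S RNA with Rpl5 and Rpl11 that is built before it joins the subunit, stayed within 2-fold in Bdp1AA against WT. RPL5 had a signal of 990 in Bdp1AA Rna15AA, 1817 in Bdp1AA and 2719 in WT. RPL11A had 2418, 1714 and 2531, and RPL11B had 384, 1090 and 1445, in the same order of groups. Set against Bdp1AA, the 2 copies of RPL11 in Bdp1AA Rna15AA lay on opposite sides of the median gene, at 0.83 and -1.17.

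The stalk genes encode the flexible arm that recruits translation factors. RPP0, its base, had a signal of 1142 in Bdp1AA Rna15AA, 1906 in Bdp1AA and 3809 in WT. RPP1A had 2904, 4503 and 4865, and RPP1B had 2552, 2461 and 3641. RPP2A had 2998, 2745 and 3895, and RPP2B had 2337, 5525 and 4757. Against the median gene none of these 5 passed 2-fold in any comparison. RPL12A and RPL12B, for the protein at the foot of the stalk, were among the lower members in Bdp1AA Rna15AA against Bdp1AA, at -1.35 and -1.05. The 7 genes of this group had a median log2 ratio of -0.40 in that comparison, where the 37 members outside the role groups had -0.77. The group of 17 exit tunnel genes, which line or ring the path of the nascent chain, had a median of -0.42 and 5 lower members, the 7 genes of the tRNA sites -0.52 with 1 lower, and the 7 bridge genes -0.77 with 3 lower.

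Between the copies of a pair the comparison needs no scaling between tables, because both copies are read from the same column. The coding sequences of the copies were 69.5% to 99.4% identical, while the 100 nt past the gene end were 33% to 57% identical. No source used here says how the authors assigned reads that match both copies, and the shares of the most alike pairs, RPL1, RPL35, RPL4, RPL41 and RPL42, are uncertain to that extent.

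In WT the A copy gave more reads in 20 of the 34 pairs. Among the most unequal were RPL15, with 98.5% from the A copy, RPL22 (96.3%), RPL9 (94.0%) and RPL31 (85.2%). The most equal were RPL1 (46.9%), RPL4 (53.9%), RPL20 (47.8%), RPP2 (45.02%) and RPL19 (43.9%). Pairs of even use thus stood beside pairs in which 1 copy gave nearly all of the mRNA. The larger copy had at least 2 times the reads of the smaller in 23 pairs in Bdp1AA Rna15AA, 16 in Bdp1AA and 15 in WT, with median ratios of 3.53, 1.85 and 1.74.

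The A share moved by 10 percentage points or more between Bdp1AA and WT in 7 of the 34 pairs, where 15% of all 60 gene pairs named A and B did. The 60 include the 34, and of the other 26 pairs 2 (7.69%) moved as far. The median difference in size was 1.59 percentage points, so most pairs kept their balance while a few moved far. RPL42A gave 12.0% of the pair (exact binomial 95% interval 11.7 to 12.3) in Bdp1AA and 40.6% in WT. RPL40A gave 36.2% in Bdp1AA and 62.1% in WT, RPL35A 47.8% and 73.3%, and RPL43A 37.4% and 62.4%. In these last 3 pairs the A copy was the larger in WT and the B copy in Bdp1AA. RPL8A gave 5.20% in Bdp1AA and 22.3% in WT, RPL7A gave 96.8% and 84.6%, and RPP2A gave 33.2% and 45.02%. In 6 of the 7 pairs 1 copy was among the 6 lower members, and in RPP2 neither copy passed 2-fold. Summed over both copies, RPL35 and RPL42 were the 2 pairs at least 2-fold lower (log2 ratios -1.93 and -1.10).

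Between Bdp1AA Rna15AA and Bdp1AA 17 of the 34 pairs moved by 10 percentage points or more, where 46.7% of the 60 pairs did, among them 11 of the other 26 (42.3%). RPL19A gave 87.4% (interval 87.1 to 87.8) in Bdp1AA Rna15AA and 42.5% in Bdp1AA, against 43.9% in WT, the largest difference of the 34 at 44.95 percentage points. RPL43A gave 64.6% in Bdp1AA Rna15AA and 37.4% in Bdp1AA, which brought the pair to within 2.16 percentage points of WT. RPL35A likewise gave 71.3% in Bdp1AA Rna15AA and 47.8% in Bdp1AA, against 73.3% in WT. RPL11A gave 86.3% and 61.1%, and RPL6A gave 86.9% and 62.2%. Moves toward A (9 pairs) and toward B (8 pairs) were about equally frequent. Among those toward B, RPL36A gave 5.01% in Bdp1AA Rna15AA and 29.5% in Bdp1AA, RPL2A 11.4% and 35.2%, and RPL26A 4.06% and 26.1%.

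Against WT 17 pairs of 34 differed in Bdp1AA Rna15AA, again where 46.7% of the 60 pairs and 11 of the other 26 did. The largest differences were RPL19 at 43.6 percentage points, RPL42 at -30.5, RPL36 at -26.2, RPL6 at 23.7 and RPL41 at -23.7. RPL41A gave 14.7% of its pair in Bdp1AA Rna15AA, 35.0% in Bdp1AA and 38.5% in WT. The copy that was larger in WT gained share in 12 of the 17 pairs.

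**Figure D3:**
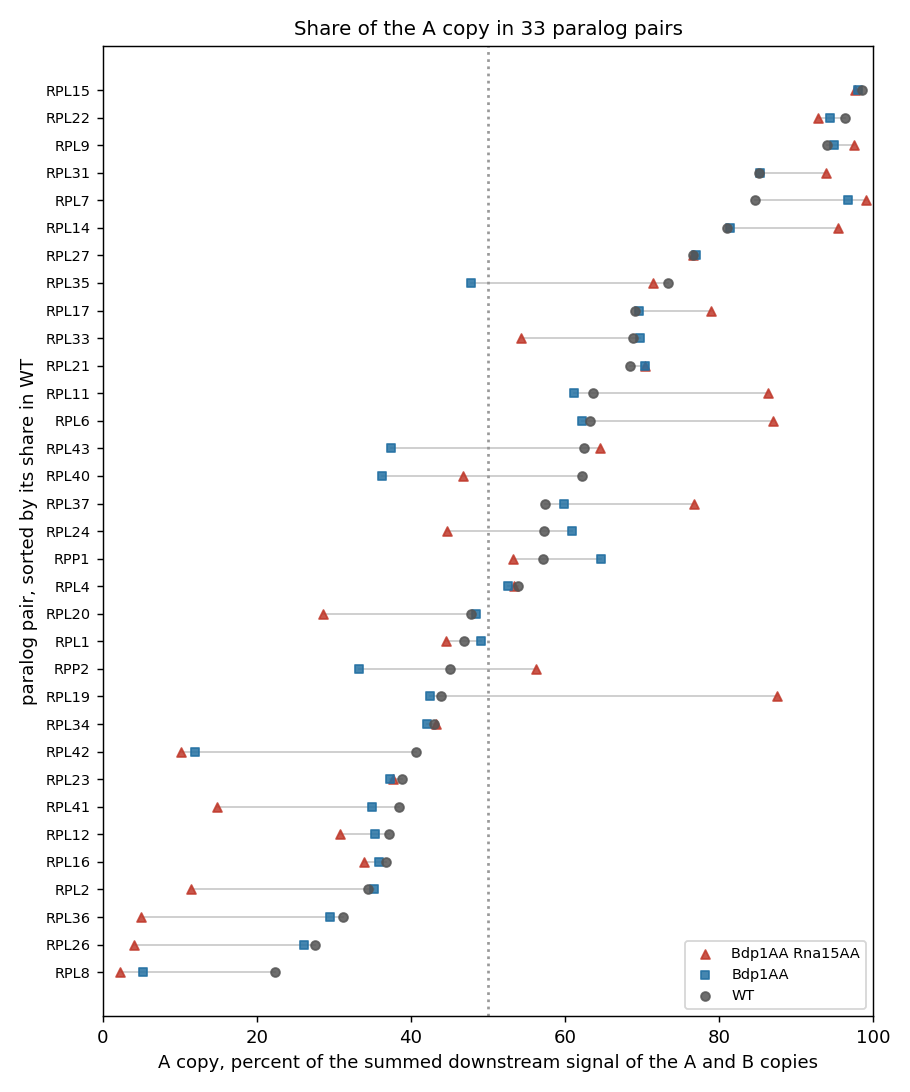
Share of the A copy in the downstream signal of each of 33 paralog pairs (percent), with triangles for Bdp1AA Rna15AA, squares for Bdp1AA and circles for WT; pairs are sorted by their share in WT. In most pairs the Bdp1AA and WT marks lie close together (median difference 1.59 percentage points), while in 17 pairs the mark of Bdp1AA Rna15AA lies at least 10 percentage points from that of Bdp1AA. The pairs RPL35, RPL40, RPL42, RPL43, RPL8, RPL7 and RPP2 differ by as much between Bdp1AA and WT.

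The positions of the ends were nearly the same in Bdp1AA and WT. The mean end of the median member lay 124 nt past the gene in Bdp1AA Rna15AA, 98.6 nt in Bdp1AA and 98.0 nt in WT. In Bdp1AA against WT 67 of 80 members (83.8%) had mean ends within 1 nt of each other, as did 45.7% of all genes. Among the small subunit protein genes 48 of 56 (85.7%) did, so this closeness was not particular to the members. The least read member had 728 reads in Bdp1AA and 1378 in WT, while genes with far fewer reads could enter the background. The part of read depth in the difference from all genes was not tested. The single most used base was the same as in WT in 76 of 80 members in Bdp1AA and in 55 of 80 in Bdp1AA Rna15AA. No member had a tRNA gene within 500 bp past its end; the closest on that side was a tRNA-Phe gene 1078 bp past RPL30, whose mean end was 116, 97.9 and 98.5 nt in Bdp1AA Rna15AA, Bdp1AA and WT.

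In Bdp1AA against WT 1 member had a mean end at least 20 nt distal, where 2.33% of all genes did, and 0 had one at least 20 nt proximal, where 0.902% did. The 1 member was RPL8A, at 195 nt in Bdp1AA and 144 nt in WT. Its ends around 517 nt made up 13.7% of reads in Bdp1AA and 10.6% in WT, and those around 741 nt 8.74% and 0.587%; the main site at 60 nt held 77.5% and 82.0%. A site at 353 to 416 nt had no listed read in Bdp1AA and held 6.57% in WT. With ends kept to 500 nt the shift was -14.1 nt. Smaller distal differences were seen in RPL35B (14.2 nt), RPL42B (2.92 nt), RPL14B (2.35 nt) and RPL6B (1.69 nt). The largest proximal ones were RPL9B (-12.7 nt), RPL12A (-9.46 nt), RPL4B (-5.16 nt), RPL2A (-2.02 nt) and RPL38 (-1.37 nt). The value of RPL35B comes from an end 1 nt past the gene that held 14.3% of its reads in WT and was not listed in the others. Site usage differed by 20 percentage points in 0 members, where 1.52% of all genes did.

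In Bdp1AA Rna15AA transcripts of many members ended farther out. Against Bdp1AA 29 members had a mean end at least 20 nt distal, where 42.2% of all genes did, and 1 proximal, where 1.26% did. The members' share, 36.25%, was below that background. The median shift was 12.3 nt for the members and 12.6 nt for all genes. The largest shifts were those of RPL22B (mean end at 314 nt in Bdp1AA Rna15AA against 68.9 nt in Bdp1AA), RPL18B (397 against 158 nt), RPL7B (311 against 93.4 nt), RPL24A (241 against 103 nt) and RPL33A (235 against 113 nt). With each end counted under its nearest gene, 3 of these fell below 20 nt: RPL22B to 8.36 nt, RPL18B to 2.80 nt and RPL7B to -0.17 nt. With ends up to 500 nt these 3 had the same values, while RPL24A was at 78.4 nt by the nearest gene and 48.6 nt with ends up to 500 nt, and RPL33A at 122 nt under both. RPL26A moved by 122 nt as well, on 34 reads at 1988 nt, and without positions that also stand under another gene its shift was -3.70 nt. RPL12A moved the other way, with 140 nt in Bdp1AA Rna15AA and 180 nt in Bdp1AA.
Behind RPL12A the lowest shifts were small: -3.48 nt in RPL40A, -2.77 nt in RPL1A, -1.52 nt in RPL2A and -1.26 nt in RPL23A. Against WT 30 members were distal, where 41.9% of all genes were, and 1 proximal, where 1.17% were. There the largest shifts were those of RPL22B (245 nt), RPL18B (239 nt), RPL7B (218 nt), RPL24A (138 nt) and RPL33A (123 nt), and the lowest those of RPL12A (-49.2 nt), RPL40A (-4.20 nt), RPL2A (-3.54 nt), RPL1A (-2.59 nt) and RPL23A (-1.66 nt). By the nearest gene RPL22B, RPL18B and RPL7B were at 8.18, 2.48 and 0.09 nt against WT. Among the 5S RNP genes RPL11B stood out at 187 nt in Bdp1AA Rna15AA, 81.7 nt in Bdp1AA and 82.5 nt in WT; with the median end in place of the mean its shift from both was -6 nt, and that of RPL14B was -3 nt.

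**Figure D4:**
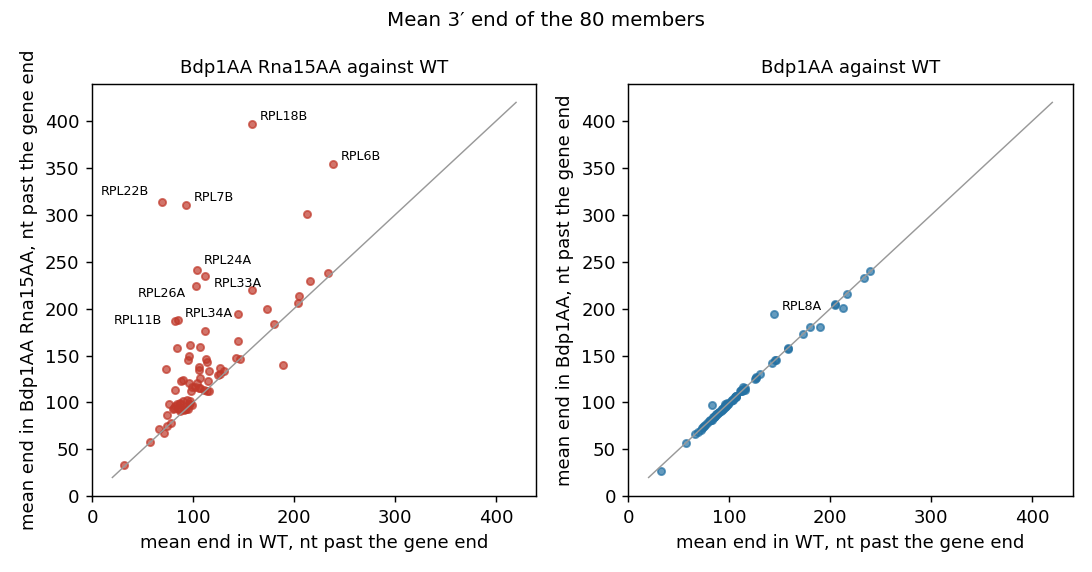
Mean 3′ end of each of the 80 members, in nt past the gene end, in Bdp1AA Rna15AA (left) and Bdp1AA (right) on the vertical axis against WT on the horizontal axis; the line marks equal positions. In Bdp1AA the points follow the line apart from RPL8A (195 against 144 nt), and in Bdp1AA Rna15AA 30 of 80 lie at least 20 nt above it.

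The site with the most reads was the same in Bdp1AA Rna15AA as in WT in 79 of 80 members, all but RPL12A, with ends joined over the 3 tables. RPL9B is among the 79 only because its ends from 130 to 316 nt join into 1 site, inside which most listed reads moved. In RPL19B the most used base was at 175 nt in Bdp1AA Rna15AA and 85 nt in WT, both within 1 joined site. With the median end in place of the mean, 6 members were distal from Bdp1AA. In 14 members a site held at least 10% of reads in Bdp1AA Rna15AA and under 1% in Bdp1AA and in WT, and these sites lay from 231 to 1794 nt past the gene; 22.3% of the 2921 genes read in all 3 tables had such a site, and 17.5% of the members. Site usage differed by 20 percentage points from Bdp1AA in 7 members, where 27.1% of all genes did, a smaller share than the background. Closely spaced ends join into wide sites, such as 172 to 499 nt in RPL41A, and moves inside a site are not counted. With ends joined at 10 nt 13 members were called, and the share over all genes at that setting was not computed. The part of read depth in the smaller share was not tested. In RPL24A the site at 130 nt held 51.7% of reads in Bdp1AA Rna15AA, 99.9% in Bdp1AA and 99.8% in WT. The site at 232 nt held 35.3% (interval 34.3 to 36.4), 0.138% and 0.201%. Farther sites at 627 and 1005 nt held 5.47% and 6.92% in Bdp1AA Rna15AA and no listed reads in the others.

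In RPL33A the cluster with its peak at 132 nt held 57.0% of 17153 reads in Bdp1AA Rna15AA and 100% in Bdp1AA and in WT, and the cluster with its peak at 417 nt held 43.0% in Bdp1AA Rna15AA and no listed read in the others. RPL26B gave 37.6% at the cluster of 243 nt in Bdp1AA Rna15AA, 0.0591% in Bdp1AA and 0.0391% in WT. RPL43A gave 29.7% at 270 nt, against 0.447% and 0.462%. RPL34B gave 20.5% at 290 nt and 8.91% at 357 nt in Bdp1AA Rna15AA, with no listed reads there in the others. In all 5 genes the new sites lay beyond the usual one.
Among the listed ends RPL9B changed almost entirely. A position needed 11 reads to be listed in Bdp1AA Rna15AA, which is much beside the 489 reads of this gene. In WT it needed 20 beside 4726. Spread-out ends may thus be missing in Bdp1AA Rna15AA, and the part of this limit in the change was not tested. The ends from 283 to 316 nt held 95.5% of 489 reads in Bdp1AA Rna15AA (interval 93.3 to 97.2), 16.6% in Bdp1AA and 16.3% in WT. The ends from 130 to 229 nt held 4.50%, 71.0% and 71.6%, and those from 80 to 103 nt held 0, 12.4% and 9.10%. RPL12A was the 1 member called that moved toward its gene: its site at 81 nt held 64.2% in Bdp1AA Rna15AA, 39.2% in Bdp1AA and 32.9% in WT, and its site at 238 nt held 35.8%, 60.8% and 67.0%. Against WT 6 members were called, where 26.6% of all genes were. RPL9B was the one missing, because 2 of its clusters join when the WT ends are added.

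**Figure D5:**
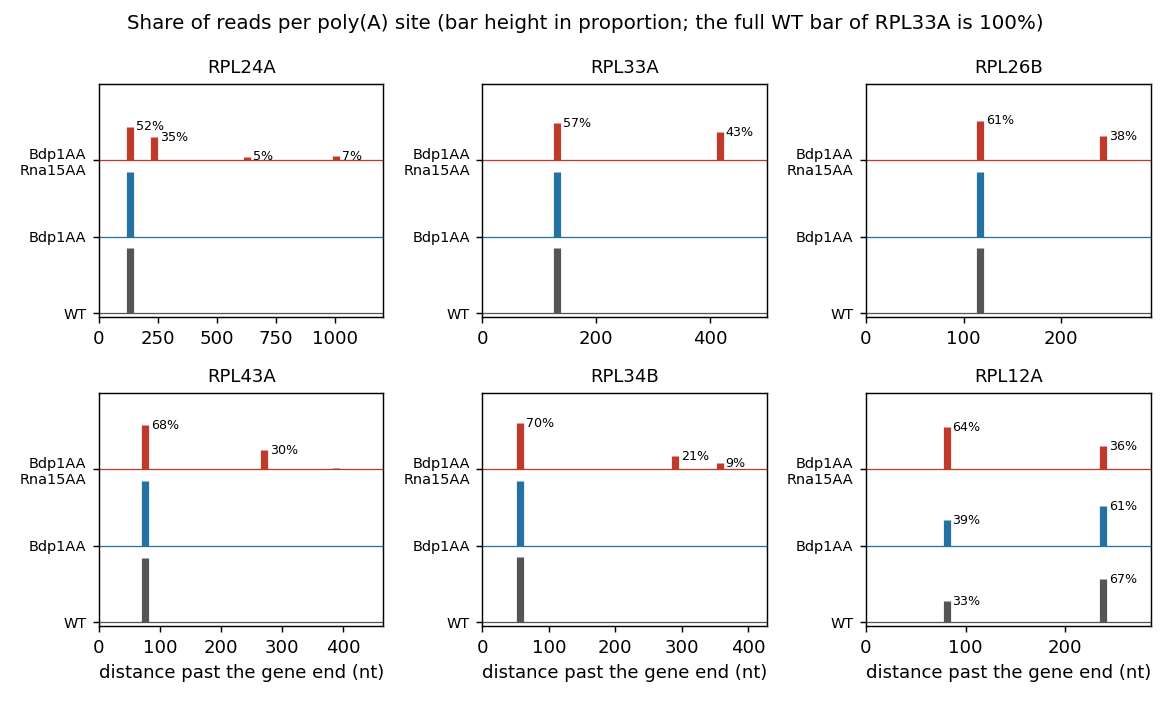
Share of reads at each poly(A) site (bars, percent in proportion to height) by distance past the gene end in nt, for 6 members in Bdp1AA Rna15AA (top row of each panel), Bdp1AA (middle) and WT (bottom). Sites under 1% in all groups are left out. RPL24A, RPL33A, RPL26B, RPL43A and RPL34B have far sites at 35.3%, 43.0%, 37.6%, 29.7% and 20.5% in Bdp1AA Rna15AA that are under 1% in the others, while RPL12A gains at its near site.

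The known signals of yeast poly(A) sites are the efficiency element TATATA and an A-rich positioning element. On the sense strand of the 80 nt before the most used end in WT, TATATA stood in 43.75% of members and 46.0% of 5041 protein-coding genes. AATAAA stood in 33.75% of members and 19.2% of protein-coding genes, AAAAAA in 17.5% and 17.1%, and either of these in 42.5% and 30.5%. Before the most used ends of Bdp1AA Rna15AA the shares were 41.25% and 46.5% for TATATA and 33.75% and 23.4% for AATAAA. Of the sites that gained reads in Bdp1AA Rna15AA, RPL24A at 232 nt and RPL9B at 304 nt had AATAAA in that window, RPL43A at 270 nt and RPL9B at 304 nt had AAAAAA, RPL34B at 357 nt had both, and RPL33A at 417 nt, RPL26B at 243 nt and RPL34B at 290 nt had neither. In the 500 bp before the gene, ACCCANNCA, the core of the Rap1 motif, stood on either strand in 31 of 80 members (38.75%) and in 6.00% of 6002 protein-coding genes, and in 3 of the 6 members lower in Bdp1AA. A match is a run of letters and not a site.

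Some reads of members ended at positions also listed under a gene farther along the strand, mostly in Bdp1AA Rna15AA. Ends listed under a member at positions also listed under a gene downstream on the same strand were found in 24 members in Bdp1AA Rna15AA, 0 in Bdp1AA and 4 in WT, leaving out features absent from R64. The share over all genes was not computed, so these counts do not show whether the members differ from other genes. Over 5% of reads lay past 500 nt in 12 members in Bdp1AA Rna15AA, 1 in Bdp1AA (RPL8A) and 0 in WT. Among all genes 18.1%, 3.99% and 4.17% had as much in the same groups, and 15%, 1.25% and 0% of the members. The 12 were RPL8A (26.8%), RPL22B (17.9%), RPL7B (17.2%), RPL6B (16.3%), RPL18B (14.5%), RPL24A (12.98%), RPL34A (10.6%), RPL26A (6.65%), RPL14B (6.32%), RPL16B (6.05%), RPL29 (5.37%) and RPL11B (5.22%). In 7 of these more than 5% of reads ended at ends also listed under the next gene.

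In RPL22B 253 of 1413 reads ended 1383 to 1417 nt past the gene, at the end of MOB2. In RPL18B 109 of 753 reads ended at 1791 to 1794 nt, where 36.4% of the reads of the small subunit gene RPS19B ended. RPL29 had 1927 reads (5.37%) at ends listed under RRT5, 1895 of them at 1252 to 1279 nt and 32 at 2872 to 2912 nt, the end of RPL2A, another large subunit gene farther along that strand. RPL24A had 612 reads at ends listed under AGA2, RPL11B 264 at ends listed under MRP13, RPL26A 34 at that of YLR345W and RPL7B 33 at that of OXR1. In WT no read of AGA2 was listed at the positions shared with RPL24A, and none of RRT5 at those shared with RPL29. In Bdp1AA Rna15AA AGA2 had 1288 listed reads at these positions where RPL24A had 612, and RRT5 had 3372 where RPL29 had 1927. The counts under AGA2 and RRT5 were thus the larger ones. How many of them are the members' reads listed again was not tested. For these 7 genes the tables as deposited held 0 to 3 reads as far out in Bdp1AA, where ends were listed from 2 reads, and 0 in WT, where they were listed from 11.

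The reverse also occurred, with transcripts of the gene before a member ending at the member's own site. This was seen for 20 members in Bdp1AA Rna15AA, 3 in Bdp1AA and 1 in WT, and here too the share over all genes was not computed. The 3 in Bdp1AA rested on 231 reads of YFR032C-B with RPL29, 6 of RRT6 with RPL9A and 2 of HMF1 with RPL34A. Ends were listed from 2 reads in Bdp1AA and from 11 in the other groups, so these counts stand at unlike limits. RPL21B shared its end with RPS9A, 179 of whose 266 reads (67.3%) ended there in Bdp1AA Rna15AA. RPL2B shared its end with 46 of 63 reads of FAF1, RPL1B with 38 of 77 reads of SEC27, RPP1A with 29 of 40 reads of THI3 and RPP1B with 85 of 307 reads of STF1. No such reads of these 5 genes were listed in WT. No source used here says whether the authors counted a read that crosses 2 genes under both. These reads were few beside those of the member: 179 under RPS9A and 5462 under RPL21B.

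The small subunit protein genes, the nearest set in kind, gave like values. In Bdp1AA against WT 5 of 56 were at least 2-fold lower and 0 higher, with a median log2 ratio of -0.19 where that of the large subunit genes was -0.17. Set against Bdp1AA, 13 of 56 in Bdp1AA Rna15AA were lower and 2 higher, with a median of -0.56 where that of the large subunit genes was -0.66. In Bdp1AA Rna15AA against WT 25 of 56 were lower, and the medians were -0.85 and -0.86. Median shifts of the mean end were 10.2 nt for the small subunit genes and 12.3 nt for the large subunit genes in Bdp1AA Rna15AA against Bdp1AA. These differences between the sets were not tested.

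Of 15 genes listed as regulators of ribosomal protein gene transcription 13 could be compared between Bdp1AA and WT; 3 were at least 2-fold lower, where 9.95% of all genes were, and 0 higher, where 6.27% were. They were TOD6, a repressor of ribosome biogenesis genes (log2 ratio -1.75), IFH1, the coactivator at ribosomal protein promoters (-1.58), and UTP22, an rRNA processing factor that binds Ifh1 (-1.39). IFH1 and UTP22 are 3258 and 3714 nt long, and 29.4% of the 1196 coding genes longer than 1662 nt were at least 2-fold lower. The part of length in these values was not tested. Between Bdp1AA Rna15AA and Bdp1AA 7 could be compared, where 25% of all genes were higher and 25.2% lower: IFH1 (1.86), RAP1 (1.29) and the kinase gene SCH9 (1.22) were higher, and HMO1, for an HMG-box protein of these promoters, was lower (-1.21). RAP1 and SCH9 are also long, at 2484 and 2475 nt. Of the 654 coding genes longer than 1662 nt 31.2% were at least 2-fold higher in this comparison, and the part of length was again not tested. Against WT, where 24.6% of all genes were lower and 26.1% higher, UTP22 (-2.14) was the only 1 of 7 past 2-fold.
Dedicated chaperones and importers hold new large subunit proteins until they reach the nucleus. In Bdp1AA against WT 2 of 6 were lower, SYO1 (-1.42), which carries Rpl5 and Rpl11, and KAP123 (-1.40), an importin. These 2 are also longer than any member, at 1863 and 3342 nt. Among 4 compared between Bdp1AA Rna15AA and Bdp1AA, SQT1, the Rpl10 chaperone, was higher (1.43) and BCP1, the Rpl23 chaperone, lower (-1.75). Against WT, SQT1 was higher (1.12), and BCP1 (-2.07), RRB1 (-1.38) and ACL4 (-1.17) were lower. Of the factors of export and joining LSG1 was lower (-1.17), 1 of 5, in Bdp1AA against WT, and TIF6 (-2.61), MEX67 (-1.32) and NMD3 (-1.09) were lower, 3 of 4, in Bdp1AA Rna15AA against Bdp1AA. The same 3 genes were at -2.71, -1.77 and -1.86 against WT. These counts stand beside the shares of all genes given above for each comparison.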

How the data were processed

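Per the labels, direct RNA libraries (kit SQK-RNA004) were made from total RNA. Per the submitters' processing notes the build was R64; no source used here names the aligner or counter. The authors deposited 1 table per group, its 3 libraries pooled, listing each 3′ end under a gene with its signal; what the scale is relative to is not stated. Signal was a whole multiple of 0.07583 (Bdp1AA Rna15AA), 0.05096 (Bdp1AA) and 0.04293 (WT), and 1 step was taken as 1 read, which is not a deposited count.

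Positions with signal under 0.83413, the highest of the tables' own lowest values, were left out, and ends past the gene end were used. This came to a minimum of 11 reads a position in Bdp1AA Rna15AA, 17 in Bdp1AA and 20 in WT. Spread-out ends of genes with few reads may therefore be missing. Counts of ends inside genes, and of the reads of neighbour genes at shared ends, were taken without this minimum. Genes needed 60 reads in both tables. Log2 ratios were centred on the median gene and called at 2-fold; mean ends were called at 20 nt, sites (ends joined at 25 nt, at least 10 reads) at 20 percentage points and pair shares at 10. Intervals (95%, exact binomial) cover counting error only. Ends inside genes are listed for minus-strand genes only. With 1 pooled column a group the planned tests for separate libraries could not be run. Genes were named by a written rule: every member called at 2-fold or on site usage, the extremes of each quantity, members with over 5% of reads past 500 nt, the most and least even pairs, and the 5S RNP and stalk genes. The values of 1 item are not reported here. Members, lists and rules were chosen with earlier results of these data known. The calculations were tested on simulated data. Python 3.11.15, pandas 2.3.3, numpy 2.4.6, scipy 1.17.1, edlib 1.3.9.post1 and matplotlib 3.10.9 were used.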

Additional observations from a re-analysis of the deposited data

How the results depend on the processing

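No paired analysis was possible because each group is 1 pooled column without replicate numbers, and for the same reason the planned fits that leave out a library were not run. Every call rests on a threshold of size. Without centring, the members at least 2-fold lower numbered 19 in Bdp1AA against WT and 61 in Bdp1AA Rna15AA against WT, 0 were higher in Bdp1AA Rna15AA against WT, and the medians were -0.68 in Bdp1AA against WT, -0.99 in Bdp1AA Rna15AA against Bdp1AA and -1.71 in Bdp1AA Rna15AA against WT. The Bdp1AA against WT median was -0.35 when centred on coding genes of the members' length range, -0.41 with the minimum as deposited and -0.30 with 200 reads; 1 member was higher with positions listed once. In Bdp1AA Rna15AA against Bdp1AA the members at least 2-fold higher numbered 4 when centred on the length range, 4 with the minimum as deposited, 4 with 20 reads, 5 with positions listed once, 1 with each end under the nearest gene and 1 with ends up to 500 nt. In Bdp1AA Rna15AA against WT they numbered 3 with 20 reads and 4 with positions listed once.

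For Bdp1AA against WT the members with a distal mean end numbered 0 with ends up to 500 nt, 0 with the median end and 2 at 10 nt; the proximal ones numbered 1 with the median end and 1 at 10 nt; the median shift was 0 with the median end. For Bdp1AA Rna15AA the distal members numbered 14 with ends up to 500 nt against Bdp1AA and 14 against WT, and 6 and 8 with the median end. The proximal ones numbered 2 against Bdp1AA with the minimum as deposited, 2 against Bdp1AA and 2 against WT with ends up to 500 nt, and 2 against WT with positions listed once. The median shift against Bdp1AA and WT was 8.19 and 8.18 nt with positions listed once, 8.24 and 8.18 nt with each end under the nearest gene, 5.45 and 5.85 nt with ends up to 500 nt, and 0 and 0 with the median end. Site usage called 13 members against Bdp1AA and 12 against WT with clusters joined at 10 nt, and 2 members in Bdp1AA against WT, 17 in Bdp1AA Rna15AA against Bdp1AA and 17 against WT at 10 percentage points. At 20 percentage points the pairs numbered 4, 10 and 9 in the 3 comparisons. Fewer ends or another threshold produce these by construction; for the other settings the cause was not tested.

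Some called shifts changed sign. With positions listed once RPL26A was at -3.70 nt against Bdp1AA and -3.99 nt against WT, and RPL11B at -0.65 nt against WT. With each end under the nearest gene RPL11B was at -3.06 and -3.83 nt and RPL26A at -3.70 and -3.99 nt against Bdp1AA and WT, and RPL7B at -0.17 nt against Bdp1AA. With ends up to 500 nt RPL11B was at -3.06 and -3.83 nt, RPL14B at -3.28 and -0.92 nt and RPL26A at -3.70 and -3.99 nt against Bdp1AA and WT, RPL7B at -0.17 nt against Bdp1AA, and RPL8A at -14.1 nt in Bdp1AA against WT and -48.8 nt in Bdp1AA Rna15AA against WT. With the median end RPL11B was at -6 nt and RPL14B at -3 nt in both comparisons of Bdp1AA Rna15AA. The 6 members lower in Bdp1AA kept that call under every setting that gave them a value; RPL7B had none with positions listed once, since its ends also stand under the snR59 nested in it. No log2 ratio past 2-fold changed sign.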

Other observations

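Features that overlap a member shared its ends in every group. The ends of RPL7A also stood under snR39 and those of RPL7B under snR59, snoRNA genes nested in their introns, and those of RPL21A under YBR190W. YFR032C-B, which lies just before RPL29 on its strand, shared 527 of its 538 reads with RPL29 in Bdp1AA Rna15AA, 231 of 231 in Bdp1AA and 17989 of 17989 in WT. The counts listed at the shared ends were alike in some cases and far apart in others. In Bdp1AA snR39 had 21658 reads where RPL7A had 21659, and YBR190W had 19 where RPL21A had 20933. In WT YFR032C-B had 17989 where RPL29 had 199656. No source used here says how reads at shared ends were assigned, so which RNA they came from cannot be told.

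Ends inside the coding gene were listed for minus-strand members only. They came to 35 reads in 2 of 36 members in Bdp1AA Rna15AA, 2713 reads in 34 in Bdp1AA and 2960 reads in 27 in WT, beside 1499447, 3240409 and 6036680 reads past the gene end over all members. The totals past the gene end carry the common minimum, while the inside ends do not. Inside ends were listed from 2 reads in Bdp1AA and from 11 in Bdp1AA Rna15AA and WT. Their counts are therefore not comparable between groups and do not show whether the groups differ.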
